A study of Mus musculus with 6 samples.

Results

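The genes described here are 10 genes of nitric oxide and cyclic GMP (cGMP) signalling, found by symbol among the 23282 entries of the count tables of a mouse forebrain stress experiment. They are Nos1, Nos1ap, Ddah1, Ddah2, Gucy1a2, Prkg1, Prkg2, Pde2a, Pde5a and Pde9a. Each symbol occurred once in every table, and all 10 genes were above the expression cutoff that left 15239 genes for testing. The mice were adult C57BL/6J males. In the water avoidance stress (WAS) group, each of 3 mice stood for 1 h on a small platform surrounded by water, and each of 3 control mice stood on the same platform without water. RNA came from a single forebrain hemisphere per mouse after the olfactory bulbs and cerebellum had been taken off, with 1 library per mouse. It was read by QuantSeq, a method that reads each mRNA once, close to where its poly(A) tail begins.

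Groups were taken from the sample labels. The count columns of the libraries labelled WAS carry headings that start with WC, those of the libraries labelled control carry headings that start with WS, and the sources used here do not define these headings. Every direction given here is therefore for libraries as labelled, and swapping the labels would swap every direction.

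Nitric oxide is a gas made from arginine by nitric oxide synthases. In neurons it is made chiefly by the neuronal synthase NOS1, which is held near NMDA receptors and switched on by calcium. It diffuses to neighbouring cells and activates soluble guanylyl cyclase, which makes cGMP from GTP. cGMP activates protein kinases and ion channels and is broken down by phosphodiesterases. Asymmetric dimethylarginine, a methylated arginine, inhibits the synthases and is removed by the DDAH enzymes.

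Of the 10 genes, Nos1 was higher and Nos1ap and Pde2a were lower in the libraries labelled WAS at an unadjusted p under 0.05. The other 7 genes did not pass that threshold. At this threshold 7.24% of all genes tested were called, 3.85% as higher and 3.4% as lower in the libraries labelled WAS. Nos1 was the only member that also reached a fold change of 1.5, a criterion met together with the p threshold by 2.49% of all genes tested. No member passed an adjusted p of 0.05 by edgeR's quasi-likelihood test, and neither did any other gene, with 0% called. The groups did not overlap for the same 3 members, and 12.2% of all genes tested had groups that did not overlap. The median log2 fold change of the 10 members was -0.054, against 0.00088 for all genes tested.

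The promoters of these 3 genes are shown because they are the members whose groups were separate. RefSeq start-site windows on GRCm38.p6, from 250 bases before to 50 bases after the start, were matched for 8 of the 10 members, with 14 windows in all. The letters searched on both strands were the CRE core TGACG, which the full cAMP response element TGACGTCA contains, and the AP-1 site TGANTCA. Capitals mark any match. The Nos1 window lies at chr5:117866589-117866888 on the plus strand. The Nos1ap windows lie on the minus strand at chr1:170557061-170557360 (first) and chr1:170589800-170590099 (second). Of the 5 Pde2a windows, the one at chr7:101450270-101450569 on the plus strand is shown, since it was the only one with a match. By gene position, the Nos1 window, the first Nos1ap window and this Pde2a window lie inside their genes, at internal start sites. The second Nos1ap window lies at the outer start of its gene.
Nos1: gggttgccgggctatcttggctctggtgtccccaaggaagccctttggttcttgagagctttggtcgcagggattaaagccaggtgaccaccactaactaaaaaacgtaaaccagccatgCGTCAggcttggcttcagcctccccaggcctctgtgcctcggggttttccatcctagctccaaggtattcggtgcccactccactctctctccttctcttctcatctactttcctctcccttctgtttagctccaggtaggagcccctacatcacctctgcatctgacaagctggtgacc
Nos1ap, first: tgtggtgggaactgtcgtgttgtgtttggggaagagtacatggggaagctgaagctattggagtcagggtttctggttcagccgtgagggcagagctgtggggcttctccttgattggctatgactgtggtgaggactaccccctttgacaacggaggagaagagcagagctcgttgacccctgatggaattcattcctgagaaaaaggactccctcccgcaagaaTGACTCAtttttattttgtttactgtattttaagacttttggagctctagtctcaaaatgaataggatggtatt
Nos1ap, second: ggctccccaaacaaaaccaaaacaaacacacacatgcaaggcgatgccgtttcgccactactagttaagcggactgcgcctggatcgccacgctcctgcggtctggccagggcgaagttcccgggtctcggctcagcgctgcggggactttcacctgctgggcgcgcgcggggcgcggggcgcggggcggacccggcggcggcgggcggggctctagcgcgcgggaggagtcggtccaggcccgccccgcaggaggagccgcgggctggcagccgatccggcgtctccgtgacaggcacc
Pde2a: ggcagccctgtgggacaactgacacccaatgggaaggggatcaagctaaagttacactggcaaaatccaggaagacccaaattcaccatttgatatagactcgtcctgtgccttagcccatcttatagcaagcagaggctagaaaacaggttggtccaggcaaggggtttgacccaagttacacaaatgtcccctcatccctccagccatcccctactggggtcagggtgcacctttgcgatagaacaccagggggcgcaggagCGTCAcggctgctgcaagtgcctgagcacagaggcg

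The Nos1 window held 1 core, which began 130 bases before the start site (position -130). The first Nos1ap window held 1 AP-1 site at position -24, and the second held neither motif. The Pde2a CRE core began at position 15 after the start. Gucy1a2 was the only other member with a match, a core at position -106, and the full element occurred in no window of the members. Over all 32851 windows of the RefSeq table, 20.81% held the core, 7.808% the AP-1 site and 1.79% the full element. These matches describe letters only, and no binding was measured.

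Library totals lay between 9248520 and 10502029 counts. Levels are given below in counts per 1000000 counts of the library total (CPM). CPM values are compared between libraries, for the same gene or the same sum of markers. They are not compared between genes, except to pick the gene with the highest CPM of each list. Fold changes and their standard errors come from edgeR after TMM scaling, and intervals are at 95%. For the 10 genes the raw counts ran from 59 to 2868 per library. The tissue was a mixture of cells, so fewer cells of a type and less RNA per cell cannot be told apart.

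Libraries differed in their levels of region markers. Summed midbrain and brainstem markers, 12 genes such as Th, Ddc and Slc6a3, were at 108 CPM in WAS replicate 1 and 151 CPM in WAS replicate 3, against 27.1 CPM in WAS replicate 2 and 15.1 to 29.1 CPM in the control libraries. Summed thalamus and habenula markers (9 genes) were at 328 and 268 CPM in WAS replicates 1 and 3 and between 44.5 and 92.1 CPM in the other libraries. Striatum markers (9 genes, of which Drd2 was at 0 or 1 count) were at 183 and 414 CPM in these same 2 libraries, at 2130 CPM in WAS replicate 2 and between 1064 and 1457 CPM in the control libraries. Choroid plexus markers were low in WAS replicate 1 (51.7 CPM) and control replicate 2 (16.6 CPM) and between 926 and 1238 CPM elsewhere. Ttr made up most of each of these sums. Otx2, also a midbrain marker, was instead at 11.3 CPM in WAS replicate 1, against 0.771 to 7.62 CPM in the control libraries. The neuron markers Snap25, Syt1, Rbfox3 and Tubb3 were present in every library, but their sum was lower in all libraries labelled WAS (4089 to 4678 CPM) than in all control libraries (4781 to 5352 CPM). The 4 genes differed among themselves. On the log2 scale Syt1 was at -0.24 (standard error 0.073) and Rbfox3 at -0.36 (standard error 0.11), each with an adjusted p of 0.539, Snap25 was at -0.26 (standard error 0.13) and Tubb3 at -0.012 (standard error 0.11). The groups did not overlap for Syt1 alone. Cortex and hippocampus markers (9 genes) were also lower in all libraries labelled WAS, at 930.02 to 999 CPM against 1032 to 1129 CPM. Of 8 cerebellum markers, the granule cell genes Gabra6 and Fat2 had at most 1 and 2 counts in any library, and Cbln3, also of granule cells, had 9 or 10 counts with WAS and 6 to 8 counts in the controls. The Purkinje cell genes Pcp2, Car8 and Slc1a6 had 191 to 252, 137 to 174 and 90 to 157 counts, with overlapping groups. En2, a gene of midbrain and cerebellum, had 29, 3 and 33 counts in WAS replicates 1, 2 and 3, while the controls had 6, 0 and 2 counts.

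Nos1 encodes the neuronal nitric oxide synthase and lies on chromosome 5 (117781032 to 117958840, plus strand, GRCm38). It was at 51.3, 39.2 and 54.1 CPM in replicates 1, 2 and 3 labelled WAS and at 29.7, 31.5 and 30.0 CPM in the control replicates. All libraries labelled WAS lay above all control libraries, and WAS replicate 2 lay closest to them. The means were 48.2 ± 7.88 CPM (SD, n = 3) and 30.4 ± 0.969 CPM (SD, n = 3). The fitted fold change was 1.55, with an interval of 1.27 to 1.88, or 0.63 on the log2 scale (standard error 0.13, adjusted p = 0.477). By unadjusted p, 0.000452, Nos1 ranked 13 among the 15239 genes.

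The control libraries lay closer together for Nos1 than counting alone would give. The coefficient of variation was 3.19% in the control libraries and 16.3% in the libraries labelled WAS. Counting alone would give about 5.05% at the mean count of all 6 libraries. Among the libraries labelled WAS, replicate 3 was highest and replicate 2 lowest both for Nos1 and for the midbrain markers, while the thalamus markers were highest in replicate 1 and the striatum markers highest in replicate 2. Without WAS replicate 2, the log2 fold change of Nos1 rose to 0.76 and the adjusted p was 0.00185, in a fit that called 3.18% of all genes at adjusted p 0.05. Without WAS replicates 1 and 3, a setting chosen after seeing the data, WAS replicate 2 alone stood 0.33 above the controls on the log2 scale, with an unadjusted p of 0.0417. That fit assumes that the lone library varies like the others. The fold change of Nos1 was also under 1.5 without WAS replicate 1 (log2 fold change 0.58) and without WAS replicate 3 (0.54). DESeq2 gave Nos1 an adjusted p of 0.0425 and called 0.144% of all genes. The part of the regional markers in the Nos1 difference was not tested.

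Neurons that make much NOS1 in cortex and striatum also make somatostatin and neuropeptide Y, so markers of these cells were read beside Nos1. The sum of Sst, Npy, Chodl, Tacr1, Cort, Gad1 and Gad2 was at 742 to 979 CPM in the libraries labelled WAS and 846 to 873 CPM in the control libraries, which overlapped. None of these 7 genes passed an unadjusted p of 0.05. Sst differed by -0.0064 on the log2 scale (standard error 0.078) and Npy by -0.38 (standard error 0.18). Chodl, a marker of the long-range NOS1 neurons, had 22 to 40 counts in the libraries labelled WAS and 25 to 36 counts in those labelled control.

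The 5 genes whose log2 CPM followed Nos1 most closely over the 6 libraries were Rell2, Gab2, Syt3, Wbp5 and Dtx1, out of 11167 genes with a mean of at least 50 counts. Pearson's r was between 0.987 and 0.993, given as a description over 6 libraries that differed in their levels of region markers. The changes of these genes were smaller than that of Nos1. Gab2, which encodes a signalling adaptor, had counts of 273, 196 and 284 in the libraries labelled WAS against 185, 198 and 184, or 0.44 on the log2 scale (standard error 0.14). The other 4 genes lay between 0.14 and 0.33.

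**Figure D1:**
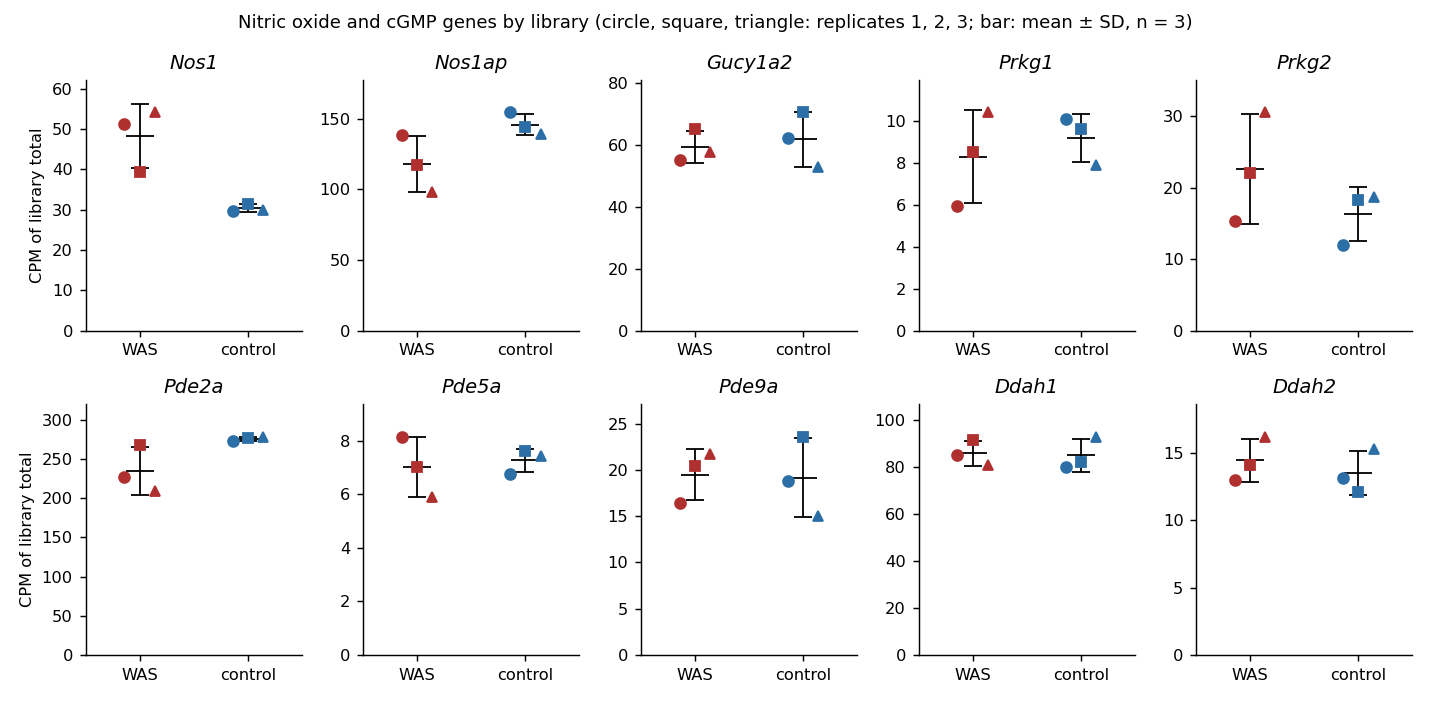
Level of each of the 10 genes in CPM of the library total (linear axis from 0) for libraries labelled WAS (red) and control (blue). Symbols mark replicates 1, 2 and 3, and bars give the mean ± SD of 3 libraries. Nos1 sits between 39.2 and 54.1 CPM in WAS and 29.7 and 31.5 CPM in control, while most other genes overlap.

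Nos1ap encodes the adaptor protein CAPON, which binds NOS1 and can hold it away from postsynaptic scaffolds. The gene lies on chromosome 1 (170302668 to 170589861, minus strand). Its level was 138, 117 and 98.4 CPM in WAS replicates 1, 2 and 3 and 154, 144 and 139 CPM in the control replicates. The groups did not overlap, but WAS replicate 1 and control replicate 3 differed by less than 1 CPM. The means were 118 ± 20.1 CPM (SD, n = 3) with WAS, by label, and 146 ± 7.76 CPM (SD, n = 3) in the control libraries. The log2 difference came to -0.34 (standard error 0.12, adjusted p = 0.585), a fold change of 0.789 with an interval of 0.661 to 0.941. The unadjusted p of 0.0127 became 0.0586 without WAS replicate 3, the lowest library, where the log2 fold change was -0.23. Without WAS replicate 1, the highest of its group, it was -0.48, with an unadjusted p of 0.000629. With limma on quantile-normalized log2 counts, the unadjusted p of Nos1ap was 0.0661. With WAS replicate 2 alone against the controls, the log2 fold change of Nos1ap was -0.36, close to that of the whole group.

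Ddah1 and Ddah2 encode the dimethylarginine dimethylaminohydrolases, which remove the methylated arginines that inhibit nitric oxide synthases. Ddah1, on chromosome 3 (145758675 to 145894277), was at 85.1, 91.3 and 80.5 CPM in the libraries labelled WAS and 79.7, 81.9 and 92.7 CPM in the control libraries. It was the steadiest of the 10 genes, with a ratio of 1.16 between the highest and the lowest library. The log2 fold change of Ddah1 was -0.023 (standard error 0.097), and the interval of the fold change ran from 0.849 to 1.14. Ddah2, on chromosome 17 (35059035 to 35062095), was at 13.0, 14.2 and 16.2 CPM in the libraries labelled WAS and 13.1, 12.1 and 15.3 CPM in the control libraries. Its log2 fold change was 0.059 (standard error 0.16), with a fold interval of 0.812 to 1.34. Both genes overlapped between the groups. The sign of Ddah1 turned around under total-count scaling (0.015), and the signs of both genes turned around when single libraries were left out.

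Gucy1a2 encodes the alpha 2 subunit of soluble guanylyl cyclase, the receptor for nitric oxide. It lies on chromosome 9 (3532778 to 3894736). Its level was 55.3, 65.3 and 57.8 CPM in the libraries labelled WAS and 62.3, 70.6 and 52.9 CPM in the control libraries, with overlapping groups. The log2 difference came to -0.095 (standard error 0.12, adjusted p = 0.929), and the fold interval ran from 0.783 to 1.12. The sign turned around without control replicate 2, at 0.011.

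The cGMP-dependent protein kinases carry the signal on to their targets by phosphorylation. Prkg1, on chromosome 19 (30564489 to 31765033), encodes kinase I and was at 5.96, 8.54 and 10.4 CPM in the libraries labelled WAS and 10.1, 9.63 and 7.92 CPM in the control libraries. WAS replicate 1 was the lowest library and WAS replicate 3 the highest, so the group labelled WAS spanned the controls. The log2 fold change of Prkg1 was -0.19 (standard error 0.23), and its fold interval of 0.620 to 1.25 was wide. Without WAS replicate 1 it was 0.0035.
Prkg2, on chromosome 5 (98929773 to 99037351), encodes the membrane-bound kinase II. It was at 15.3, 22.1 and 30.5 CPM in the libraries labelled WAS and 12.0, 18.3 and 18.6 CPM in the control libraries. This was the most variable of the 10 genes, with a ratio of 2.55 between WAS replicate 3 and control replicate 1. On the log2 scale it differed by 0.43 (standard error 0.25, adjusted p = 0.747), and the fold interval ran from 0.930 to 1.96. Among the fits with a library left out, Prkg2 met both of the study's criteria only without WAS replicate 1 (log2 fold change 0.65, unadjusted p = 0.00975), and its log2 fold change was 0.15 without WAS replicate 3. With the replicate number as a block, the unadjusted p of Prkg2 was 0.0157, against 0.104 without the block.

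**Figure D2:**
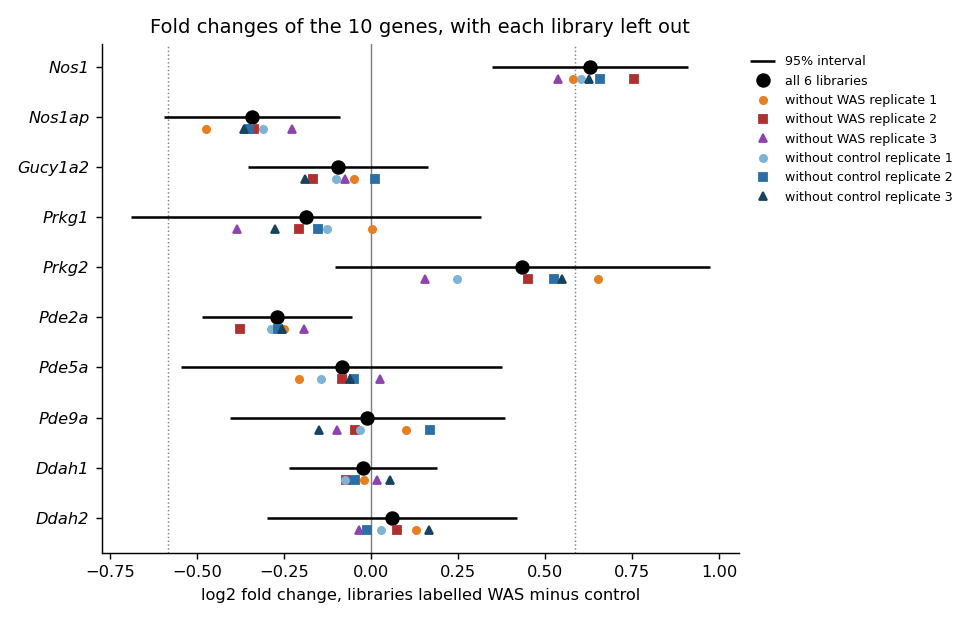
Log2 fold change of the 10 genes (x axis, libraries labelled WAS minus control). Black points and lines give the fit on all 6 libraries with its 95% interval, small symbols the fits without each library, and dotted lines a fold change of 1.5. The intervals of Nos1, Nos1ap and Pde2a leave out 0, and Nos1 stays between 0.54 and 0.76.

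Phosphodiesterases end the cGMP signal. Pde2a encodes an enzyme that breaks down cAMP as well as cGMP and is itself stimulated by cGMP. The gene lies on chromosome 7 (101421691 to 101512827, plus strand), and its transcript end is shared with the GENCODE gene model Gm45837, so its counts are uncertain to that extent. Pde2a was at 227, 268 and 208 CPM in the libraries labelled WAS and 273, 276 and 278 CPM in the control libraries. The coefficient of variation of the control libraries was 0.936%, below the 1.98% that counting alone would give at the mean count of all 6 libraries. All libraries labelled WAS lay below them, with WAS replicate 2 nearest. The means were 235 ± 30.5 CPM (SD, n = 3) and 276 ± 2.58 CPM (SD, n = 3). On the log2 scale it differed by -0.27 (standard error 0.098, adjusted p = 0.615), a fold change of 0.829 with an interval of 0.714 to 0.963. Without WAS replicate 2 it was -0.38 with an adjusted p of 0.0266. With WAS replicate 2 alone it was -0.081, with an unadjusted p of 0.456. The unadjusted p of Pde2a was also above 0.05 without WAS replicate 3 (0.0872), without control replicate 3 (0.0506) and with limma on quantile-normalized log2 counts (0.0823).

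Nos1 and Pde2a thus showed mirrored values over the libraries labelled WAS, with replicates 1 and 3 farthest from the controls for both and replicate 2 nearest. These are also the libraries in which midbrain and thalamus markers were high and striatum markers low. The summed neuron markers and the summed cortex and hippocampus markers, like Pde2a and Nos1ap, were lower in all libraries labelled WAS than in all control libraries. The part of the regional and neuron markers in the differences of Nos1, Nos1ap and Pde2a was not tested.

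Pde5a and Pde9a encode phosphodiesterases that act on cGMP in preference to cAMP. Pde5a, on chromosome 3 (122728947 to 122859374), was at 8.15, 7.03 and 5.91 CPM in the libraries labelled WAS and 6.76, 7.61 and 7.42 CPM in the control libraries. Its log2 fold change was -0.084 (standard error 0.21), with a fold interval of 0.685 to 1.30. Pde5a is abundant in vascular smooth muscle and in Purkinje cells of the cerebellum. Summed smooth muscle and pericyte markers were at 78.8 to 87.4 CPM in the libraries labelled WAS and 77.3 to 89.6 CPM in the control libraries. Pde9a, on chromosome 17 (31386210 to 31476310), was at 16.4, 20.4 and 21.7 CPM in the libraries labelled WAS and 18.9, 23.6 and 15.0 CPM in the control libraries. Its log2 fold change was -0.011 (standard error 0.18), with a fold interval of 0.755 to 1.30, and its sign turned around under total-count scaling (0.025). The sign of Pde5a turned around without WAS replicate 3 (0.026).

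**Figure D3:**
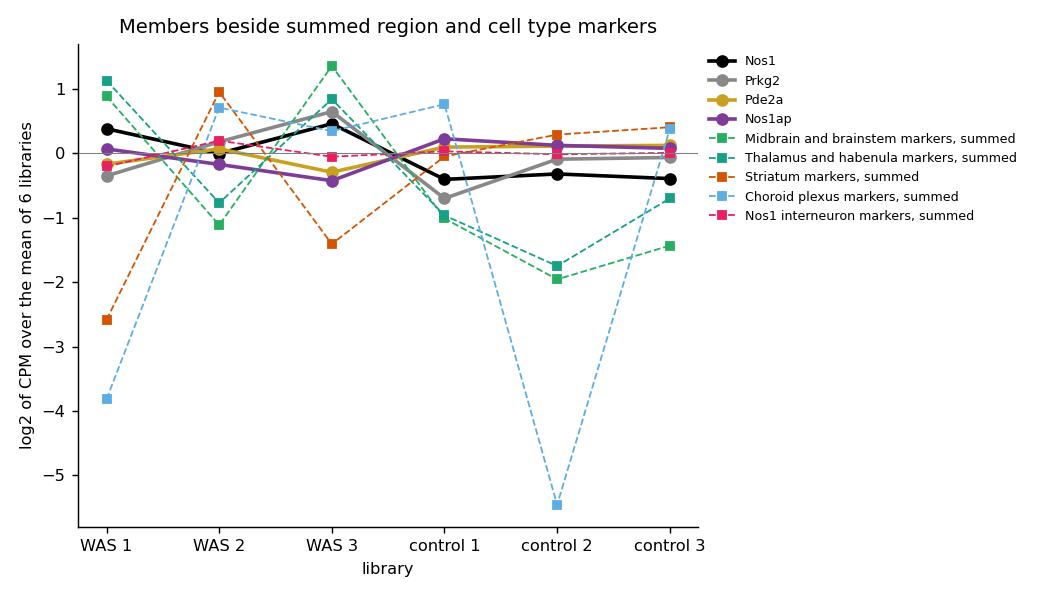
Level of Nos1, Nos1ap, Prkg2 and Pde2a (solid lines) and summed markers of regions and cell types (dashed lines) in each library, as log2 of CPM over the mean of the 6 libraries. Midbrain and thalamus markers were high and striatum markers low in WAS replicates 1 and 3, where Nos1 was at 51.3 and 54.1 CPM. Lines join libraries to guide the eye only.

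A further 73 genes that make, supply, read or end the signal were examined, and 53 of them were above the expression cutoff. Of these, 9 had an unadjusted p under 0.05, 5 of them up and 4 down in WAS as labelled, which is 17.0% against 7.24% of all genes tested. Without control replicate 1 only 3 of them passed, against 4.92% of all genes. The count was 4 without WAS replicate 3 (4.27% of all genes) or control replicate 2 (4.09%), and 16 without WAS replicate 2 (13.7%). None passed an adjusted p of 0.05, the smallest being 0.514 by edgeR's quasi-likelihood test. The median log2 fold change of the 53 genes was 0.030. The groups did not overlap for 10 of them, against 12.2% of all genes tested.

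Among the other synthases and the partners of NOS1, 8 of 9 genes were tested and none had an unadjusted p under 0.05. Nos3, the endothelial synthase, was at 6.11 ± 0.156 CPM (SD, n = 3) with WAS and 6.33 ± 0.912 CPM (SD, n = 3) without it, by label. Nos2, the inducible synthase, had between 0 and 6 counts and was below the cutoff. Dlg4, which encodes the scaffold PSD95 that binds NOS1, was at 381 ± 45.4 CPM (SD, n = 3) and 399 ± 25.9 CPM (SD, n = 3). The 6 tested genes for tetrahydrobiopterin, a cofactor of the synthases, had log2 fold changes above 0 without passing the threshold, with a median of 0.18. Qdpr, which regenerates the cofactor, was at 276 ± 24.1 CPM (SD, n = 3) and 248 ± 22.1 CPM (SD, n = 3).

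Arginine supply and use held 4 of the 9 genes past the threshold, out of 8 tested (50%, against 7.24% of all genes tested). The cationic amino acid transporters, which bring arginine into cells, differed in direction. Slc7a3, the neuronal transporter, had counts of 179, 117 and 161 in the libraries labelled WAS against 94, 109 and 109 in the control libraries, with no overlap. This is a log2 difference of 0.58 (standard error 0.18, adjusted p = 0.539). Slc7a2 was also higher, at 0.32 (standard error 0.14), and Slc7a1 was lower, at -0.32 (standard error 0.11). Prmt3, an arginine methyltransferase, was higher at 0.29 (standard error 0.12), with 224, 228 and 234 counts against 200, 194 and 181. Slc7a3, like Nos1, was highest in WAS replicates 1 and 3.

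Of the 4 genes for removal of S-nitrosothiols, Cbr1, a carbonyl reductase, was higher by 0.22 on the log2 scale (standard error 0.087). Among guanylyl cyclases and their ligands, 10 of 15 genes were tested and 1 passed the threshold. This was Gucy1b3, the beta 1 subunit that pairs with the alpha subunits of soluble guanylyl cyclase, at 127 ± 16.5 CPM (SD, n = 3) with WAS, by label, and 145 ± 5.48 CPM (SD, n = 3) in the control libraries. Its log2 fold change was -0.23 (standard error 0.10), and the groups overlapped. Natriuretic peptides signal through membrane-bound cyclases that also make cGMP. Npr2, the receptor for C-type natriuretic peptide, was at 44.9 ± 0.809 CPM (SD, n = 3) and 37.7 ± 2.60 CPM (SD, n = 3), just outside the threshold at an unadjusted p of 0.0508 in edgeR's test across all genes.

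Of the other phosphodiesterases that act on cGMP, 7 of 13 were tested. Pde1a, a calcium and calmodulin dependent enzyme, was lower. It had 2406, 2168 and 2313 counts in the libraries labelled WAS, 2728, 2969 and 2530 counts in the control libraries, and a difference of -0.22 on the log2 scale (standard error 0.081). The estimate for Pde11a was 1.46 (standard error 0.66), but its counts were only 4, 9 and 9 against 2, 3 and 3. It was the only one of the 53 genes that met both of the study's criteria. Among 10 tested effectors of cGMP, Kcnmb4, a beta subunit of BK potassium channels, was lower. Its counts were 555, 607 and 470 against 846, 767 and 670, a log2 difference of -0.44 (standard error 0.12, adjusted p = 0.514). Rgs2, a regulator of G protein signalling that the cGMP kinase acts on, was at 178 ± 33.1 CPM (SD, n = 3) and 180.1 ± 22.6 CPM (SD, n = 3).

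**Figure D4:**
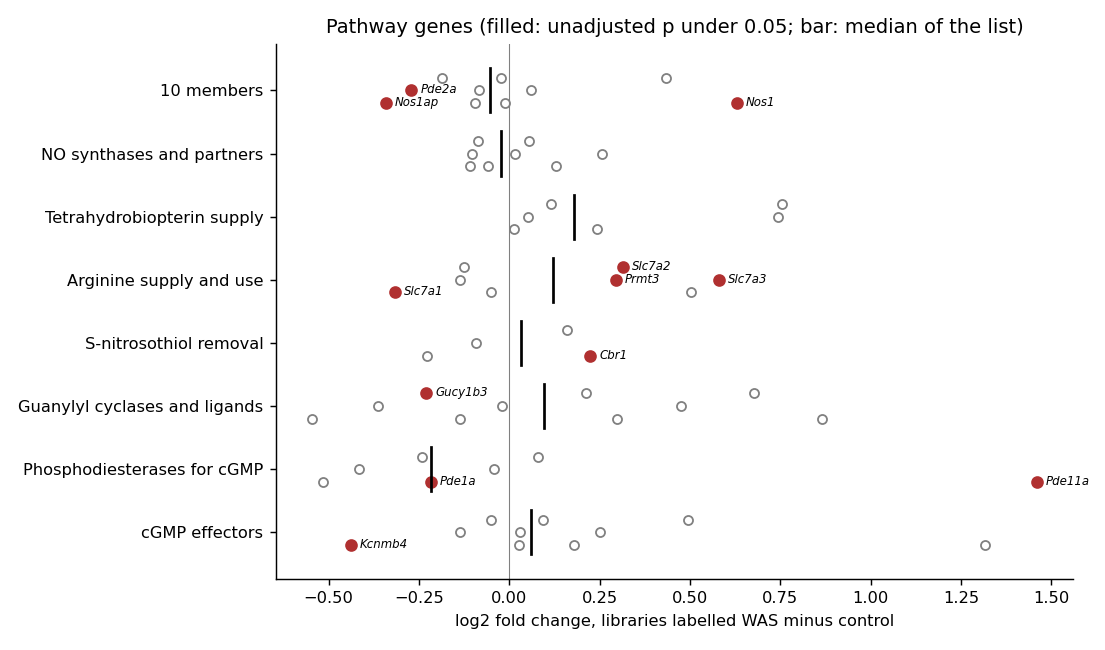
Log2 fold change (x axis, libraries labelled WAS minus control) of the 10 members and of the tested genes of 7 lists of the pathway. Each point is a gene, filled red where the unadjusted p was under 0.05, and bars give the median of each list, from -0.22 for the phosphodiesterases to 0.18 for tetrahydrobiopterin supply.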

How the data were processed

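Forebrain RNA of 3 mice labelled WAS and 3 labelled control was analysed. The deposited files hold raw counts per gene symbol. Per the methods, the authors aligned the QuantSeq reads with Bowtie2 and counted both unique and multiple alignments with Bedtools. The submitters' processing notes name mm10 and bedtools, and the annotation is not given in the sources used here. The totals of 9248520 to 10502029 counts are before any normalization, so counting error is the least error possible. The 44 entries that repeat a symbol stayed separate.

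Counts were scaled by TMM and tested with edgeR 4.0.16 in R 4.3.3 (quasi-likelihood test, Benjamini-Hochberg adjustment) on genes with a mean log2(quantile-normalized count + 1) of at least 2. Standard errors are the log2 fold change over the square root of F. The sample titles call the libraries biological replicates, and p-values measure the spread between them. Alternatives were total-count scaling, DESeq2 1.42.0, limma 3.58.1 on quantile-normalized log2 counts (pseudocount 1), 2 other filters, the replicate number as a block, and libraries left out.

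Members and lists were chosen with earlier results of these data known. Named were the members, of each pathway list the gene with the highest CPM and those with an unadjusted p under 0.05, and the 5 genes most like Nos1, except 1 gene that is not reported here. Npr2, Nos3, Nos2 and the genes in the closing observations were chosen after their values were seen. Gene positions are from GENCODE M21 (GRCm38), promoters from RefSeq. A search of the last 500 bases of the longest coding transcript of each member found a stretch of 50 bases shared with another gene for Pde2a only.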

Additional observations from a re-analysis of the deposited data

How the results depend on the processing

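Of the members' log2 fold changes under the alternatives, 112 kept their direction and their side of adjusted p 0.05, 15 turned around and 3 passed adjusted p 0.05. DESeq2 called 22 genes in all at adjusted p 0.05 in place of 0, Nos1 among them (log2 fold change 0.63). On quantile-normalized log2 counts with limma, 1 member (Nos1) in place of 3 had an unadjusted p under 0.05, against 5.7% of all genes, and Pde9a was at 0.00022. Under total-count scaling Pde9a was at 0.025 and Ddah1 at 0.015, both turned around, while the median of all genes moved to 0.038. Same-numbered libraries deviated together with correlations of 0.060 to 0.087, and every library correlated best with its own number. The main fit did not pair them, and the sources used here do not say whether they were paired. With the replicate number as a block, 49 genes passed adjusted p 0.05, no member was among them, and no member changed direction. Without WAS replicates 1 and 3, 1 gene passed adjusted p 0.05, 0 members met the study's criteria, 5 pathway genes had an unadjusted p under 0.05 (5.39% of all genes), and Gucy1a2 (0.037), Pde9a (0.053) and Ddah1 (0.066) turned around. With each library left out in turn, between 261 and 831 genes met the study's criteria and between 0 and 484 passed adjusted p 0.05, both highest without WAS replicate 2. The same fits gave 1 to 4 members and 3 to 16 pathway genes with an unadjusted p under 0.05, against 4.09% to 13.7% of all genes, and 0 to 1 members at the study's criteria. The 1 member was Prkg2 and not Nos1 without WAS replicate 1. The log2 fold changes ran from 0.54 to 0.76 for Nos1, -0.48 to -0.23 for Nos1ap, 0.15 to 0.65 for Prkg2, -0.38 to -0.19 for Pde2a, -0.19 to 0.011 for Gucy1a2, -0.39 to 0.0035 for Prkg1, -0.21 to 0.026 for Pde5a, -0.15 to 0.17 for Pde9a, -0.075 to 0.055 for Ddah1 and -0.033 to 0.17 for Ddah2. The cause of these shifts was not tested. Counting error alone was 11.8% per library for Pde5a and 10.7% for Prkg1, the members with the fewest counts.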

Other observations

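Other cGMP genes of the striatum varied widely within the group labelled WAS. Pde10a, the phosphodiesterase of medium spiny neurons, was read 216, 1636 and 392 times in WAS replicates 1, 2 and 3, while the controls had 915, 1197 and 1269 counts. Pde1b, another phosphodiesterase of the striatum, had counts of 800, 2275 and 844 against 1688, 1886 and 1894. Gucy1a3, the alpha 1 subunit of soluble guanylyl cyclase, had counts of 721, 1177 and 731 against 987, 959 and 1048. For all 3 genes the lowest libraries were WAS replicates 1 and 3 and the highest was WAS replicate 2, so the groups overlapped. The log2 fold change was -0.51 (standard error 0.55) for Pde10a, -0.42 (standard error 0.34) for Pde1b and -0.14 (standard error 0.19) for Gucy1a3. The striatum markers were lowest and highest in the same libraries, and their part in these values was not tested. Pde10a is itself on the striatum marker list.

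Summed astrocyte markers (6 genes) were at 1497 to 1708 CPM in the libraries labelled WAS and 1358 to 1514 CPM in the control libraries, and the groups overlapped. Of these, Aqp4 was higher by 0.36 on the log2 scale (standard error 0.13) and Aldoc by 0.22 (standard error 0.089), both at an unadjusted p under 0.05, while Gfap was at 0.51 (standard error 0.25) and Slc1a3 at -0.11 (standard error 0.090). Endothelium markers (7 genes, Nos3 included) were at 151 to 163 CPM and 149 to 170.4 CPM. Hypothalamus markers ran from 12.9 to 27.8 CPM and from 4.34 to 57.6 CPM, and olfactory bulb markers from 7.91 to 8.54 CPM and from 5.11 to 11.3 CPM. Cerebellum markers were at 49.6 to 53.0 CPM and 46.0 to 52.0 CPM. Vascular and NOS1 neuron markers are given beside the genes they bear on.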
